A study of Mus musculus with 9 samples.

Results

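The hemidesmosome and anchoring complex is the set of proteins that fastens basal keratinocytes to the basement membrane of the skin. Its 9 members here are Col7a1, Col17a1, Lama3, Lamb3, Itga6, Itgb4, Itga3, Itgb6 and Plec, taken by gene symbol from every probe set assigned to exactly 1 gene. All 9 were measured, by 16 of the 45037 probe sets, or 9 of 18193 genes. Itga6, Itga3, Itgb6, Lama3 and Plec had several probe sets, and the other 4 had a single one.

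The study compared epidermis of adult mice on the hairless SKH1 background (5 generations of backcrossing). Every mouse was homozygous for a loxP-flanked Alox12b allele and received 3 intraperitoneal injections of 1 mg tamoxifen at the age of 8 weeks, and epidermis was taken 6 days later. The inactivated group (5 arrays, genotype p/p +/Cre) also carried a Cre-ERT2 recombinase under the keratin 14 promoter, which is active in basal keratinocytes. The controls (4 arrays, genotype p/p +/+) were littermates without Cre, so the presence of Cre and the inactivation of Alox12b cannot be told apart. Epidermal RNA was hybridised to Affymetrix whole-genome mouse arrays, 1 array per sample. The labels call the arrays biological replicates, and p-values measure the spread between them.

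Hemidesmosomes are plaques on the lower face of basal keratinocytes. The integrin made of the subunits Itga6 and Itgb4, together with the transmembrane collagen Col17a1, spans the membrane. Inside the cell, plectin (Plec) and the epithelial product of Dst tie them to keratin filaments, and outside they bind laminin-332, whose chains include the products of Lama3 and Lamb3. Anchoring fibrils of collagen VII (Col7a1) join that laminin to the dermis. Inherited defects in several of these genes cause blistering of the skin.

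Values are log2 signals per probe set, and differences are inactivated minus control ± SE from limma, with p-values adjusted by Benjamini and Hochberg over all probe sets and a threshold of 0.05. For a gene with several probe sets, the brightest on average is given unless another is named. Signals of different probe sets do not compare the abundance of different genes. Array medians lay between 4.34 and 4.42, and the number of arrays limits the precision. On the first principal component (63.4% of the variance) inactivated replicate 5 scored 25.3, against 44.9 to 55.8 for the other inactivated arrays and -63.0 to -48.6 for the controls. Alox12b itself was read at 9.28 ± 0.10 (SD, n = 4) in the controls and 9.89 ± 0.29 (SD, n = 5) after inactivation, by a probe set whose place relative to the deleted part is not given in the sources used here, so it does not check the deletion. The keratinocyte markers Krt5, Krt14, Krt10 and Krt1 were bright on all arrays. The fibroblast markers Col1a2 and Col3a1 were also bright, at 12.88 ± 0.35 and 12.66 ± 0.29 (SD, n = 4) in the controls.

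In the inactivated epidermis the members did not move together. The collagens Col7a1 and Col17a1, the laminin chain Lamb3 and the plaque protein Plec fell, the integrin subunits Itga3 and Itgb6 rose, and Lama3, Itga6 and Itgb4 did not pass. That is 4 of 9 genes lower and 2 higher, where 18.9% of all genes were lower and 15.5% higher, 34.4% in all. The median difference of the members was -0.05, against 0.03 over all genes. At the level of probe sets, 6 of 16 were lower and 5 higher, against 16.0% and 12.7% of all probe sets (28.6% in all).

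**Figure D1:**
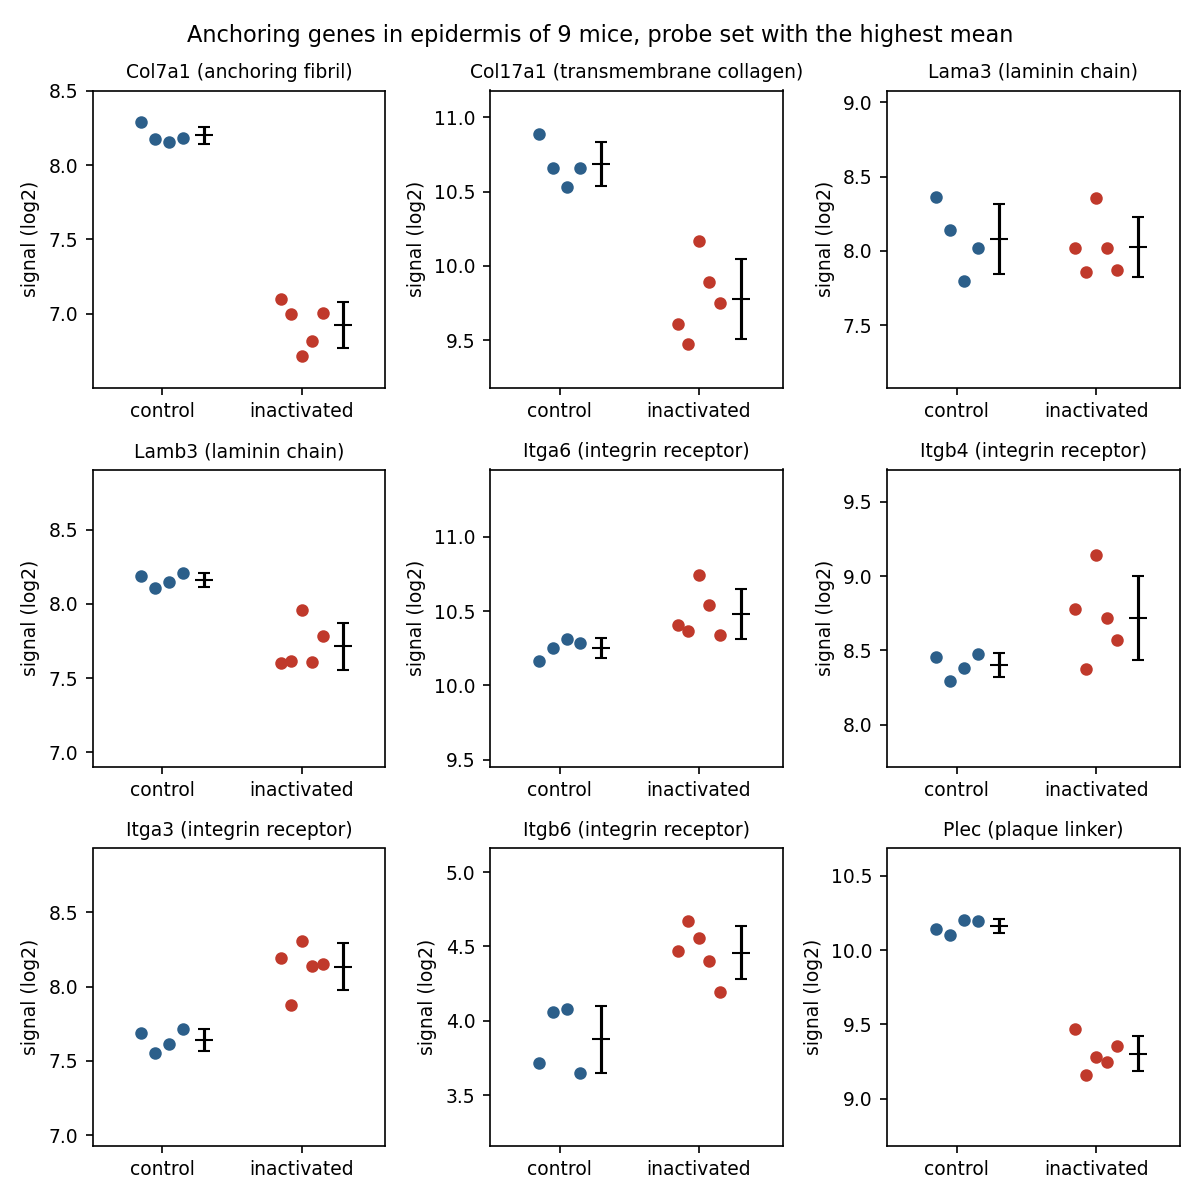
Signal (log2) of the 9 anchoring genes on each array, 4 control and 5 inactivated, each gene by its brightest probe set. Points are arrays, and the bar beside each group gives the mean ± SD; all panels span 2 log2 units. Col7a1, Col17a1, Lamb3 and Plec lay lower on every inactivated array than on any control, and Itga3 and Itgb6 lay higher. Itga6 also lay higher on each, by as little as 0.03, and did not pass.

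Col7a1 encodes the collagen of the anchoring fibrils and had the largest difference among the members. It read 8.29, 8.17, 8.16 and 8.18 on control replicates 1 to 4. It read 7.10, 6.998, 6.72, 6.82 and 7.002 on inactivated replicates 1 to 5. The groups were 1.06 apart at their nearest, and the lowest array was inactivated replicate 3. The difference was -1.27 ± 0.09, or 2.42-fold lower (adjusted p = 6.5e-06).

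Col17a1, the transmembrane collagen of the hemidesmosome, read 10.89, 10.66, 10.53 and 10.66 in the controls. In the inactivated group it read 9.61, 9.47, 10.17, 9.89 and 9.75. The inactivated arrays were more spread than for Col7a1, with inactivated replicate 3 nearest to the controls, and the groups did not overlap. Col17a1 fell by 0.91 ± 0.14, or 1.88-fold (adjusted p = 0.00069).

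The sequences upstream of the starts of both collagen genes are shown because these had the largest falls of the 9 members by their brightest probe sets. They are the 250 bases before the RefSeq gene start (GRCm38.p6), read 5′ to 3′ on the strand of the gene. Capitals mark matches, on either strand, to the GC box GGGCGG or the TATA box TATAAA.
Col7a1, chr9:108953336-108953585, plus strand: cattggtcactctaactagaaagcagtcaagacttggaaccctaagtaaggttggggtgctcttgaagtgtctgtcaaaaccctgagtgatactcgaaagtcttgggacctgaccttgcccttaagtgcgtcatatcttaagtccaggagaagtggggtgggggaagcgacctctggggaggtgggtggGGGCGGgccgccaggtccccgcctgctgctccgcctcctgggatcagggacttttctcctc
Col17a1, chr19:47692043-47692292, minus strand: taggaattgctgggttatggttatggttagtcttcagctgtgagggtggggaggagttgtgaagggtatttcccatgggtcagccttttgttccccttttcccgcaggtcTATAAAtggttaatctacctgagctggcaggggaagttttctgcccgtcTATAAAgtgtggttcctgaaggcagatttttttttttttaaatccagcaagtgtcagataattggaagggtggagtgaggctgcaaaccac
The Col7a1 window held 1 GC box, beginning 61 bases before the start, a motif found in 32.7% of all 32851 windows of this length. The Col17a1 window held no GC box and 2 TATA boxes, beginning 140 and 91 bases before the start, where 12.4% of windows hold at least 1. The AP-1 motif TGANTCA, present in 6.75% of windows, was in neither. It was also in none of the windows of Lamb3, Itga3 and Itgb6, the other members whose windows were scanned. These matches describe letters and not binding.

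The chains of laminin-332 differed from each other. Lamb3, the beta chain, read 8.19, 8.10, 8.14 and 8.21 in the controls and 7.60, 7.61, 7.96, 7.61 and 7.79 in the inactivated group. Every inactivated array lay below the controls, with inactivated replicate 3 the highest. The fall was 0.45 ± 0.09, or 1.36-fold (adjusted p = 0.0034).

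Lama3, the alpha chain, read 8.36, 8.14, 7.79 and 8.02 in the controls and 8.02, 7.86, 8.36, 8.02 and 7.87 in the inactivated group. The groups overlapped almost entirely. The difference was -0.05 ± 0.13 (adjusted p = 0.79), with a 95% confidence interval of -0.34 to 0.24. The second Lama3 probe set (1444860_at) lay near the bottom of the signal range, at 2.53 ± 0.09 (SD, n = 4) in the controls, and differed by 0.14 ± 0.07 (adjusted p = 0.17).

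Among the integrins, which bind this laminin or other matrix proteins, 2 of 4 subunits rose and none was lower. Over all genes, 15.5% were higher and 18.9% lower. Itga6 pairs with Itgb4 in the hemidesmosome. Itga6 read 10.16, 10.25, 10.31 and 10.29 in the controls and 10.41, 10.37, 10.75, 10.54 and 10.34 in the inactivated group. All inactivated arrays lay above the controls, by as little as 0.03, and the difference of 0.23 ± 0.09 did not pass (adjusted p = 0.090, 95% confidence interval 0.02 to 0.43). With array medians subtracted it did pass (0.27, adjusted p = 0.045). The other Itga6 probe set (1422444_at) differed by 0.14 ± 0.16 (adjusted p = 0.55), and its groups overlapped.

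Itgb4, the subunit whose long tail reaches the plaque, read 8.46, 8.29, 8.38 and 8.47 in the controls. In the inactivated group it read 8.78, 8.38, 9.14, 8.72 and 8.57. Inactivated replicates 1, 3, 4 and 5 lay above all controls and inactivated replicate 2 among them. The difference of 0.31 ± 0.13 did not pass (adjusted p = 0.10, 95% confidence interval 0.02 to 0.61). It passed without inactivated replicate 2 (0.40, adjusted p = 0.033) and with array weights (0.31, adjusted p = 0.045).

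Itga3 forms, with Itgb1, a laminin-332 receptor outside the hemidesmosome. Its brightest probe set (1455158_at) read 7.69, 7.55, 7.61 and 7.71 in the controls and 8.19, 7.88, 8.31, 8.14 and 8.15 in the inactivated group. The groups did not overlap, and inactivated replicate 2 was the nearest to the controls. Itga3 rose by 0.49 ± 0.09, or 1.40-fold (adjusted p = 0.0023). Its other probe sets rose by 0.42 ± 0.07 (1421997_s_at, adjusted p = 0.0017) and 0.86 ± 0.16 (1460305_at, adjusted p = 0.0026).

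Itgb6 pairs with Itgav in a receptor that activates latent TGF-beta and appears on keratinocytes of healing wounds. It read 3.71, 4.06, 4.08 and 3.65 in the controls, near the median of all probe sets (4.40). It read 4.47, 4.67, 4.55, 4.40 and 4.19 in the inactivated group. Every inactivated array was higher, with inactivated replicate 5 the lowest of them. The rise was 0.58 ± 0.12, or 1.50-fold (adjusted p = 0.0051). The second probe set (1432281_a_at) rose by 0.69 ± 0.15 (adjusted p = 0.0058).

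Plec, the linker to keratin filaments, read 10.14, 10.10, 10.21 and 10.19 in the controls. In the inactivated group it read 9.47, 9.16, 9.28, 9.25 and 9.35. The groups were 0.63 apart at their nearest. Plec fell by 0.86 ± 0.08, or 1.81-fold (adjusted p = 2.8e-05). A second probe set (1434610_at) fell by 0.95 ± 0.10 (adjusted p = 6.2e-05).

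The third Plec probe set (1437554_at) fell by 0.44 ± 0.12 (adjusted p = 0.023), with inactivated replicate 1 reaching the control range. Its call was lost without inactivated replicate 4 (adjusted p = 0.053) or control replicate 1, 2 or 3 (adjusted p = 0.060, 0.059 and 0.056), and after quantile normalisation (adjusted p = 0.085), cyclic loess (0.066) or without moderation (0.059). Plectin has many transcript forms, and the sources used here do not say which of them each probe set reads. Plectin is also abundant in muscle. Skeletal muscle markers, none of 4 passing, had a summed level of 5.47 to 9.66 in the inactivated group and 5.44 to 5.81 in the controls. Their highest level was on inactivated replicate 4, where Plec read 9.25, and their part in the Plec result was not tested. Smooth muscle markers were lower in 4 of 4, with summed levels of 8.45 to 9.29 against 9.57 to 9.85, and their part was not tested.

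**Figure D2:**
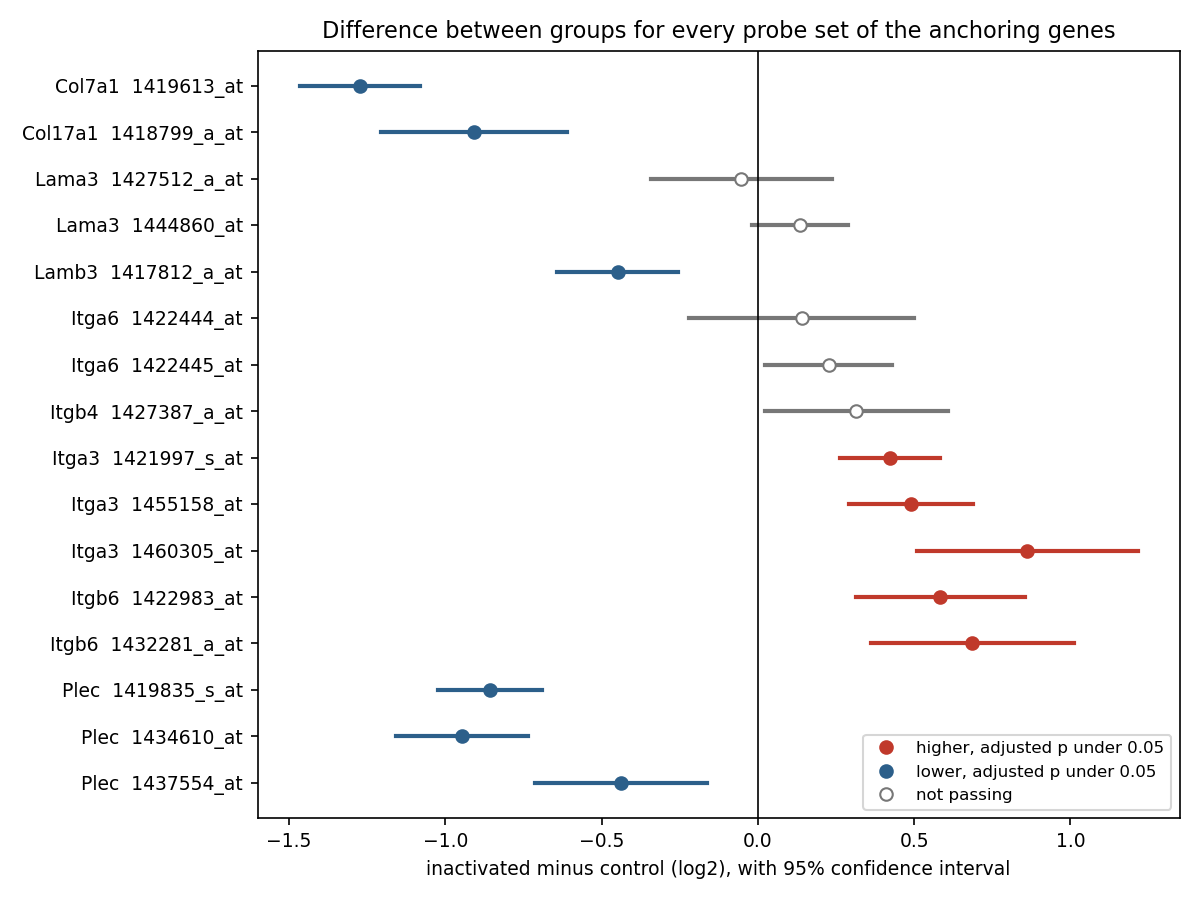
Difference between the groups (inactivated minus control, log2) for all 16 member probe sets, with 95% confidence intervals from limma. Filled points passed adjusted p 0.05 and open points did not. All 3 probe sets of Plec lay below 0, and all 3 of Itga3 and both of Itgb6 lay above it.

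By a two-sided exact permutation test of each member, with the arrays split into 5 and 4 in every possible way, 7 of 9 members had p under 0.05 without adjustment, where the share over all genes was 44.1%. Leaving out each array in turn gave 6 to 8 members. The p-values were 0.0079 for Col7a1, Col17a1 and Plec, the smallest that the splits can give. They were 0.016 for Lamb3, Itga3 and Itgb6, 0.024 for Itga6, 0.071 for Itgb4 and 0.73 for Lama3. The groups did not overlap in 7 of 9 members, where the share over all genes was 31.6%, and in 11 of 16 member probe sets, against 25.7% of all probe sets.

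Within each array, the log2 ratio of 2 members shows whether they changed unequally. It was compared for 6 pairs by the exact permutation test (two-sided, adjusted over the 6 pairs). The pairs were binding partners except Itga3 and Itga6, which pair with Itgb1 and Itgb4 and not with each other. Itga6 and Itgb4, which together form the hemidesmosome integrin, had a ratio that differed by -0.09 between the groups, with SDs of 0.16 (n = 5) and 0.12 (n = 4) (exact p = 0.36, adjusted 0.36). The ratio of Col17a1 to Itgb4 fell by 1.22, with every inactivated array between -1.46 and -1.11 of the control mean and the controls between -0.13 and 0.15 (exact p = 0.0079, adjusted 0.016). Plec to Itgb4 fell by 1.17 (exact p = 0.0079, adjusted 0.016). Col7a1 to its ligand chain Lamb3 fell by 0.83 (exact p = 0.0079, adjusted 0.016). In these 3 pairs the groups did not overlap.

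The remaining pairs overlapped between the groups. Lama3 to Lamb3 rose by 0.39 and Itga3 to Itga6 by 0.26 (exact p = 0.024 and adjusted 0.029 for each). The Lama3 and Lamb3 result had an exact p of 0.054 to 0.057 without inactivated replicate 1, 2, 3 or 4 or control replicate 3 or 4. The Itga3 and Itga6 result had 0.054 to 0.071 without inactivated replicate 1, 3, 4 or 5 or control replicate 2, 3 or 4, and 0.056 with the mean of all probe sets of each gene.

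**Figure D3:**
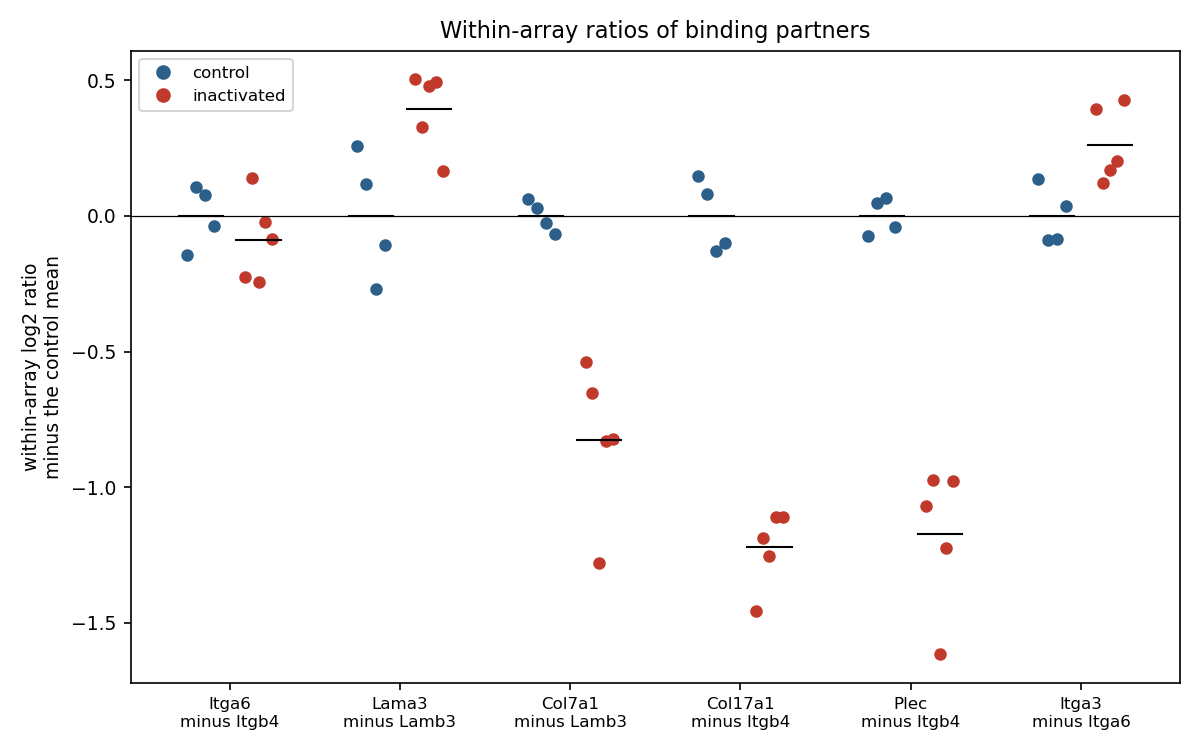
Within-array log2 ratio of 6 pairs of members, each set to 0 at the control mean. All are binding partners except Itga3 and Itga6. Points are arrays and black lines are group means. The inactivated arrays lay below every control for Col7a1 against Lamb3, Col17a1 against Itgb4 and Plec against Itgb4, and the ratio of Itga6 to Itgb4 overlapped between the groups.

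Genes that work beside the members fell more often than they rose. The 7 lists held adhesion genes, collagen enzymes and the TGF-beta axis. Of their 73 measured genes, 6 were higher, 29 lower and 38 did not pass, with a median of -0.17, where 15.5% of all genes were higher and 18.9% lower. Collagen enzymes (7 of 15 lower) and the TGF-beta axis (6 of 11 lower) are part of this count. Of 7 measured hemidesmosome partners, 4 were lower and 1 higher, with a median of -0.43. The plaque protein BP230 is the epithelial product of Dst. Dst was 10.80 ± 0.08 (SD, n = 4) in the controls and 9.68 ± 0.18 (SD, n = 5) in the inactivated group. It fell by 1.11 ± 0.10 (adjusted p = 2.6e-05), and all 4 of its probe sets were lower. The sources used here do not say which transcript forms of Dst these probe sets read. The tetraspanin Cd151, a partner of laminin-binding integrins, fell by 0.43 ± 0.11 (adjusted p = 0.016). Its 6 probe sets disagreed, with 4 lower and 1 higher, and the call was lost without control replicate 3 (adjusted p = 0.053). Exph5, a trafficking protein linked to skin fragility, fell by 0.69 ± 0.13.

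Transcripts of the keratins that plectin and BP230 hold did not pass as lower, unlike those of Plec and Dst. Krt5 differed by -0.07 ± 0.07 (adjusted p = 0.49). Krt14, its partner, rose by 0.47 ± 0.06 (adjusted p = 0.00044), to 13.12 ± 0.05 (SD, n = 5), close to the top of the array range, where signals are compressed. Of the 6 plakins, the family of Plec and Dst, 2 were lower and 1 higher, with a median of -0.08. Macf1, a plakin that crosslinks actin and microtubules, rose by 0.66 ± 0.07 on a probe set joined by 2 others that also rose. Epiplakin (Eppk1) fell by 0.47 ± 0.13 (adjusted p = 0.020), with the groups overlapping. That call was lost without control replicate 1 (adjusted p = 0.051) or control replicate 2 (0.057), and without moderation (0.056).

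Among 12 other laminins and basement membrane linkers, 6 were lower and none higher, with a median of -0.25. Frem2, which helps bind epidermis to the membrane, fell by 2.303 ± 0.161, from 4.90 ± 0.30 (SD, n = 4) to 2.59 ± 0.25 (SD, n = 5), near the bottom of the range. Nephronectin (Npnt), an integrin ligand, fell by 2.298 ± 0.219, and 3 of its 5 probe sets were lower. Agrin (Agrn) fell by 1.05 ± 0.11. Of 7 other keratinocyte integrins, 1 was lower and 6 did not pass, with a median of 0.01. The lower one, Itgb5, a partner of Itgav, fell by 0.79 ± 0.07 (adjusted p = 4.0e-05) on 4 of 4 probe sets. Itgb1, the partner of Itga3, differed by 0.12 ± 0.11 (adjusted p = 0.44), and Itga5 by 0.14 ± 0.14 (adjusted p = 0.46).

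Focal adhesion adaptors, which link integrins to actin, had 2 of 16 higher, 4 lower and 10 not passing, with a median of -0.12. The integrin-linked kinase Ilk fell by 1.01 ± 0.12, and the tensins Tns1 and Tns4 by 1.06 ± 0.18 and 0.55 ± 0.10. Enzymes that build or shed collagen had 2 of 15 higher and 7 lower, with a median of -0.37. The lysyl hydroxylase Plod2 rose from 3.55 ± 0.17 (SD, n = 4) to 6.83 ± 0.48 (SD, n = 5), by 3.27 ± 0.22 (adjusted p = 5.2e-06). The prolyl hydroxylase subunits P4ha2 and P4ha1 fell by 0.89 ± 0.10 and 0.57 ± 0.08. In the TGF-beta axis, known to induce Col7a1, 6 of 11 were lower and none higher, with a median of -0.34. Tgfb3 fell by 1.14 ± 0.22 and Smad4 by 0.34 ± 0.07. Tgfb1 fell by 0.54 ± 0.12, although its other probe set read 0.21 and the mean of both did not pass (-0.16, adjusted p = 0.16).

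**Figure D4:**
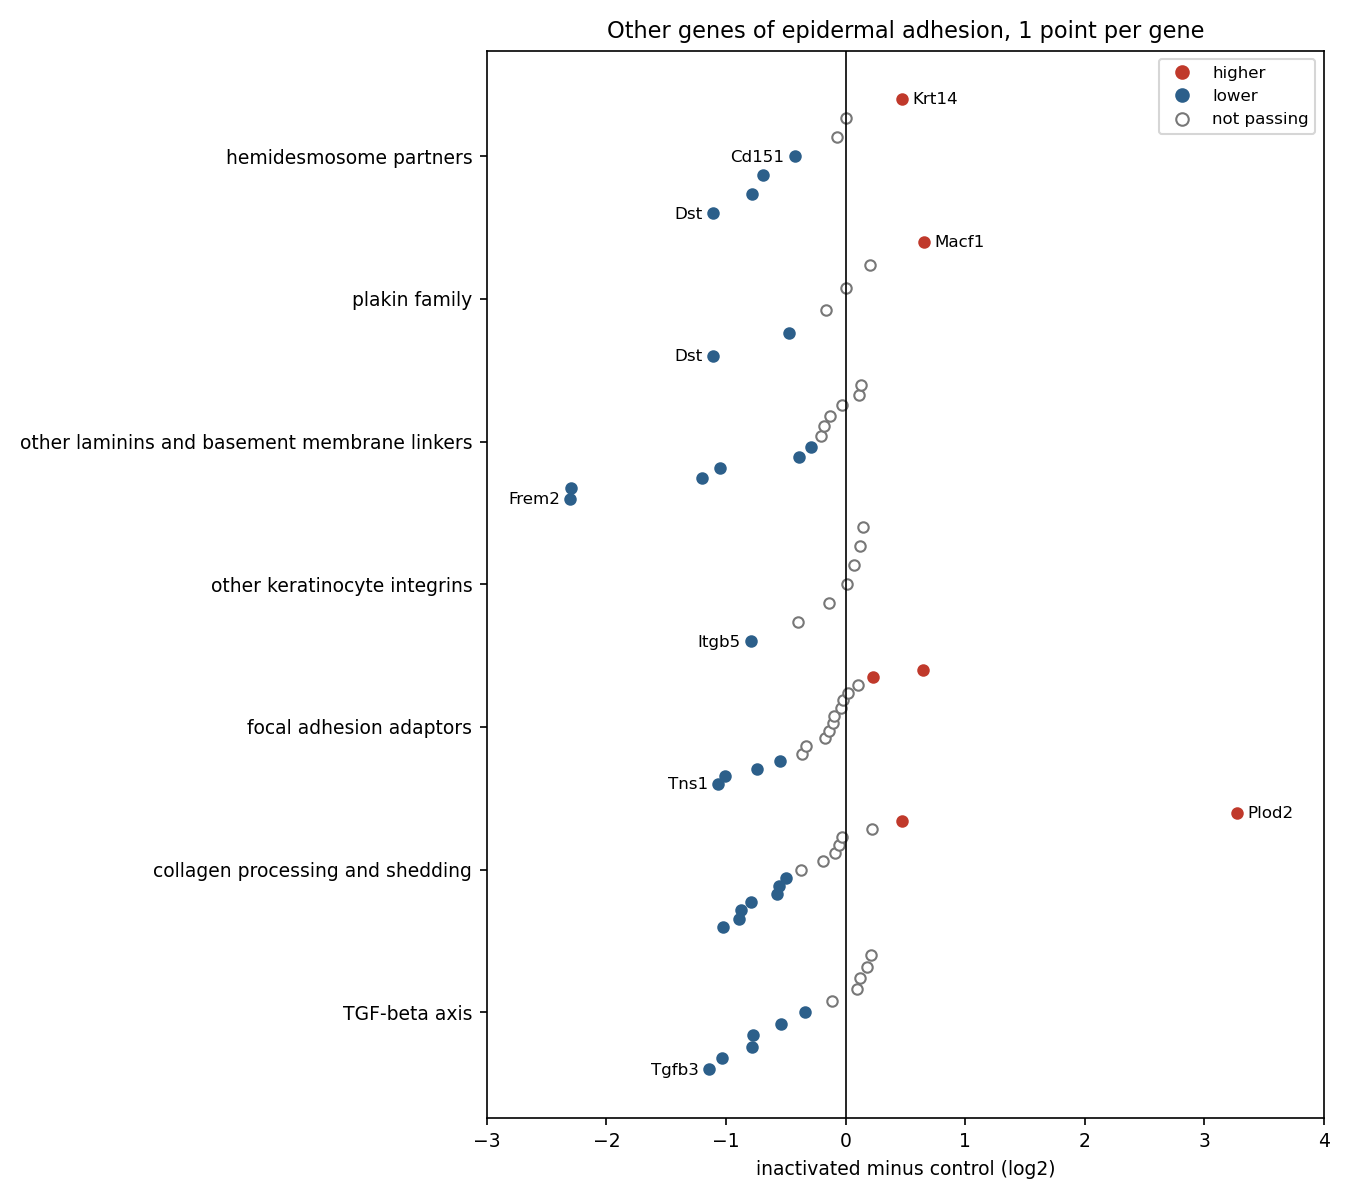
Difference between the groups (log2) for the measured genes of 7 lists of adhesion, collagen enzyme and TGF-beta genes, 1 point per gene by its brightest probe set. Dst stands in both of its lists. Filled points passed adjusted p 0.05. Lower genes outnumbered higher ones in every list, as over all genes (18.9% lower, 15.5% higher). The counts were small for plakins (2 lower and 1 higher of 6) and other integrins (1 lower of 7). Plod2 stood apart at 3.27.

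Markers of some other cells also differed between the groups. In bulk epidermis, fewer cells of a type and less RNA per cell cannot be told apart. Fibroblasts, which also make Col7a1, had 9 of 9 measured markers lower, with a median of -1.01. The log2 of their summed level was 13.14 to 13.90 in the inactivated group and 14.02 to 14.67 in the controls. The lowest signal among the 9 was that of Mfap5, at 5.85 ± 0.31 (SD, n = 4) in the controls. Control replicate 1, at 14.02, lay close to inactivated replicate 1, at 13.90. On this pair of arrays, picked after the values were seen, Col7a1 read 8.29 and 7.10, Col17a1 10.89 and 9.61, Plec 10.14 and 9.47, and Lamb3 8.19 and 7.60. Control replicate 1 was the highest control for Col7a1 and Col17a1, while Plec and Lamb3 were highest on other controls. A pair picked in this way cannot show the part of fibroblast RNA. Fibroblasts also make many of the basement membrane linkers, collagen enzymes and TGF-beta genes given above. The part of fibroblast RNA in the falls of these genes and of the 4 members was not tested.

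Basal keratinocytes make the hemidesmosome, and their 5 markers split, with 2 higher (Krt14 and Cdh3), 2 lower (Krt15 and Trp63) and Krt5 not passing. The sizes were unequal. Krt15 fell by 3.22 ± 0.21, from 11.82 ± 0.24 (SD, n = 4) to 8.59 ± 0.44 (SD, n = 5). Trp63 fell by 0.35 ± 0.09, while Cdh3 rose by 0.99 ± 0.13 and Krt14 by 0.47 ± 0.06. The summed level of the 5 markers, in which Krt14 weighs most, was 13.81 to 13.93 in the inactivated group and 13.92 to 14.13 in the controls. The part of basal keratinocytes in the falls of the members was not tested. Suprabasal markers did not pass in any of 7, with summed levels of 15.49 to 15.78 against 15.73 to 15.75. Of these, Krt10 and Krt1 read 13.49 ± 0.02 and 13.02 ± 0.05 (SD, n = 4) in the controls. Such signals lie close to the top of the array range, where differences are compressed. Endothelial cells also carry Itga6, and 1 of their 7 markers was higher and 1 lower, with summed levels of 7.87 to 8.65 against 8.22 to 8.77. Macrophage markers were lower in 3 of 4 (10.37 to 11.12 against 11.14 to 11.55), and Langerhans and T cell markers in 3 of 4 (11.36 to 12.00 against 12.06 to 12.31). Of 7 hair follicle markers, 2 were higher and 2 lower, with summed levels of 12.22 to 12.88 against 13.01 to 13.06. Melanocyte markers were higher in 5 of 5, with summed levels of 7.22 to 8.99 against 5.94 to 6.33. Schwann cell markers were higher in 1 of 3 (7.86 to 8.21 against 7.93 to 8.01), and of 2 adipocyte markers none passed (8.03 to 10.75 against 6.66 to 9.37). The part of these cells in the results was not tested.

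**Figure D5:**
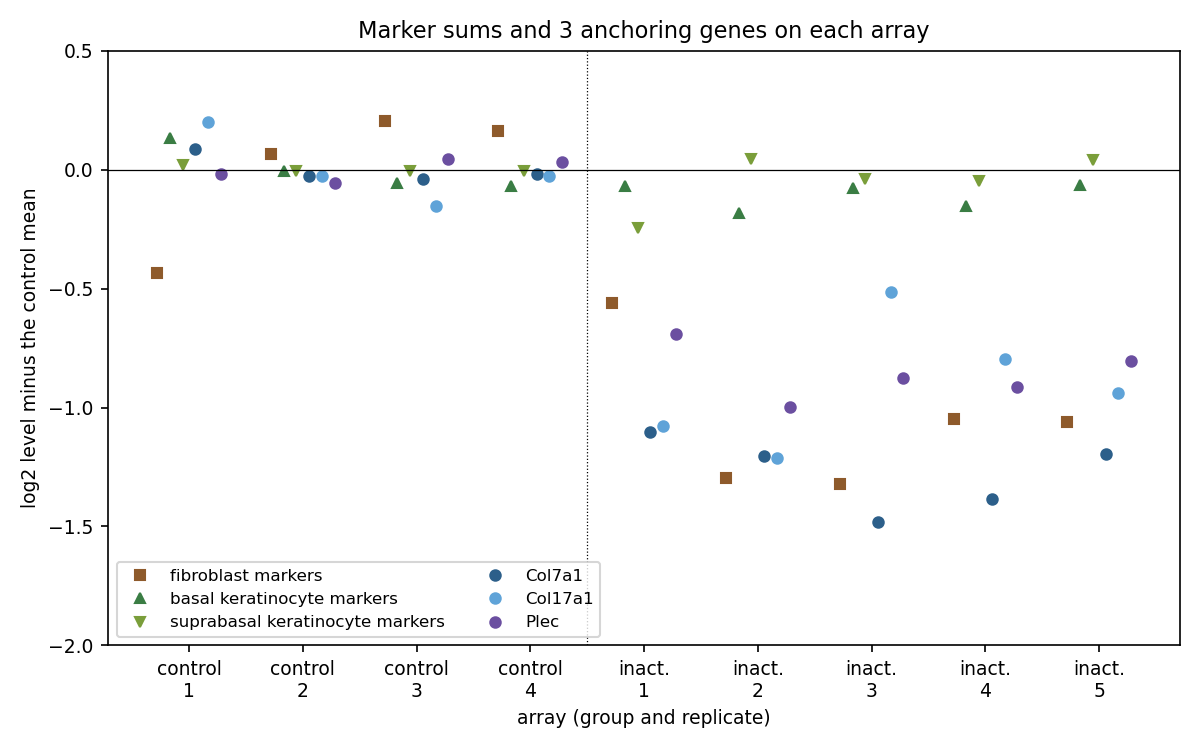
Summed marker levels and 3 anchoring genes on each array (log2, minus the control mean), for 4 control and 5 inactivated arrays. Fibroblast markers, Col7a1, Col17a1 and Plec lay lower on every inactivated array than on any control, and the suprabasal sums overlapped between the groups. The basal sums overlapped only barely. Before the control mean was subtracted, the highest inactivated basal sum was 13.928 and the lowest control basal sum 13.924.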

How the data were processed

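The authors deposited 1 table of log2 values for 45037 probe sets on 9 arrays. Per the submitters' processing notes the tool affy was used, with no version. The sources used here do not state the background correction, normalisation, summary method or log base; the values were read as log2 because the highest exceed the natural logarithm of any scanner reading. Array signals flatten at both ends of their range, which understates differences there. Gene names come from the platform annotation, in which 34945 probe sets have 1 symbol, 932 several and 9160 are unlisted, and only the first kind was named.

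Groups were compared with limma 3.58.1 in R 4.3.3 (lmFit and eBayes, two-sided, no covariates, no filter), fitted on all probe sets, and checked on simulated arrays. Single values and ratios of members were compared by exact permutation in Python 3.11.15. Summed marker levels are the log2 of the sum of unlogged signals. The members, gene lists and tests were chosen with earlier results of these data known. Named genes are all members, the partners Dst, Cd151, Krt5, Krt14 and Itgb1, in each list the 3 genes of lowest adjusted p, and the 3 genes closest to Col7a1 and to Col17a1 over the 9 arrays. Alox12b, Col3a1, Mfap5 and Trp63 are named outside this rule, the last 3 after their values were seen. Of 76 listed adhesion genes 73 were measured, and the others were not analysed here. The sex of the mice is not labelled and was inferred from Xist and transcripts of the Y chromosome (3 female and 2 male inactivated mice, 1 female and 3 male controls) and used only as an alternative covariate and for group effects by sex. Promoter sequences are RefSeq's (GRCm38.p6), matched by symbol and scanned for 5 of 9 members. The scan of members skipped a chromosome, so a missing window does not mean that RefSeq has none. Alternatives were 3 normalisations, filters on dim probe sets, other variance models, the replicate number as a block, sex, a threshold of 0.01, other choices of probe set, and leaving out each array.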

Additional observations from a re-analysis of the deposited data

Results flagged for a closer look

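Of 76 groups of arrays examined (38 probe sets in 2 groups), 2 had an array far from the others, and chance alone sets about 5% apart. Itga5, an integrin subunit that did not pass, read 4.28 on control replicate 1, while the other controls lay between 4.51 and 4.53. Tns1 read 6.20 on inactivated replicate 2, while the other inactivated arrays lay between 6.97 and 7.19. No member of the complex was set apart in this way. An interaction of group and sex was also fitted in limma. The controls held 1 female, so the interaction rests on a single array there. It cannot show whether group effects differed by sex.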

How the results depend on the processing

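Col7a1, Col17a1, Lamb3, Itga3, Itgb6 and the 2 brighter Plec probe sets kept their direction and passed under each alternative that held them, with Col7a1 between -1.32 and -1.22 and Col17a1 between -1.03 and -0.83. With probe sets below the median signal removed, 3 member probe sets of 13 and 1 member gene of 8 were higher. Without probe sets that can match several transcripts, 3 of 9 member probe sets were higher and 3 lower, and 2 of 6 member genes were lower, since Col17a1, Lamb3 and Itgb4 have no other probe set. With the mean of all probe sets the Itga3 to Itga6 ratio rose by 0.41 without passing. The Lama3 difference turned to 0.041 with the mean of its probe sets and ran from -0.15 to 0.041 when arrays were left out in turn, above 0 without control replicate 1. The dimmer Itga6 probe set ran from -0.0099 to 0.25, below 0 without control replicate 1; none of these passed before or after, and the cause was not tested. Leaving out each array in turn gave 2 to 3 member genes higher and 4 lower each time, and 24 to 29 adhesion genes lower. It gave 0.31 to 0.48 for Lama3 to Lamb3 and 0.22 to 0.31 for Itga3 to Itga6. The replicate number as a block left 2 member genes higher and 4 lower and 11008 probe sets called in place of 12900. Deviations of same-numbered arrays correlated at -0.27 to 0.08, and 1 of 8 arrays correlated best with its own number, so the numbers were not taken as a pairing. Signal near background limits Itgb6, Frem2 and the second Lama3 probe set. The split over all genes depended on the scaling. It was 2816 higher and 3434 lower as deposited and 2953 and 3141 after cyclic loess. It was 3075 and 3033 after quantile normalisation, and 3558 and 3037 with array medians subtracted.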

Other observations

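The genes whose values followed the collagens most closely over the 9 arrays, by the root mean square difference of log2 deviations from the control mean, are given as a description, since they were searched for among all genes. For Col7a1 they were 1700012D14Rik (0.07, fell by 1.32), the aryl hydrocarbon receptor Ahr (0.13, fell by 1.18) and the vesicle fusion protein Use1 (0.13, fell by 1.20). For Col17a1 they were the glycine transporter Slc6a9 (0.14, fell by 0.85), the serotonin transporter Slc6a4 (0.15, fell by 0.92) and the homeobox gene Hoxc5 (0.15, fell by 0.96).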
